A study of Mus musculus with 6 samples.

Results

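The respiratory chain and ATP synthase are built from subunits encoded in 2 genomes, and their transcripts were followed here in the mouse somatosensory thalamus. Members were the features whose gene name begins with Nduf, Sdh, Uqcr, Cox4 to Cox8, Atp5 or mt- and that had at least 60 counts summed over the 6 libraries. The rule took 108 of 26554 features, 95 encoded in the nucleus and 13 in the mitochondrial genome. Of the 95 nuclear-encoded members, 81 are subunits of complexes I to V and 14 are assembly or other factors that share the names. All 108 are protein-coding genes in GENCODE M21, and all had enough counts to be tested.

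Of 111 features with such names, 3 fell below the minimum. Cox8b had 47 counts in all, and Cox8c and a second feature named Atp5o had 0 counts in every library. Just inside the minimum were Cox7b2, with 82 counts, and Cox7a1, with 159.

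The libraries were made from the ventral posterolateral and posteromedial thalamic nuclei (VPL/VPM) of wild-type (WT) C57 mice. In the collagenase group, 10 nL holding 0.01 U of type IV collagenase, an enzyme that digests collagen in vessel walls and so causes a small bleed, had been injected into these nuclei on the right side. The saline group received 10 nL of saline at the same place, and tissue of both groups was taken at day 14. Each group had 3 libraries of poly(A)-selected RNA with 33603076 to 44815451 counts in total. The model is one of central post-stroke pain, and the series asks which genes differ between the groups. Nothing in the labels ties a library to a single animal or a pool. Each p-value therefore measures only how far these libraries differ, which may be technical.

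Complex I takes electrons from NADH and complex II from succinate, and both pass them to ubiquinone. Complex III moves them on to cytochrome c and complex IV to oxygen. Complexes I, III and IV pump protons, and complex V, the ATP synthase, uses the return of these protons to make ATP. Complex II is the only one whose subunits are all encoded in the nucleus. Neurons spend much of their ATP on ion pumping and depend strongly on this pathway. The mitochondrial genome is copied into long transcripts from both strands. These are cut into mRNAs, mostly at the transfer RNAs between them, and most of the mRNAs receive poly(A) tails.

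The libraries were selected on poly(A), and in some mitochondrial genes the tail also supplies the end of the stop codon, so the 3′ ends of the coding sequences are shown for 5 of the 13 mRNAs. Each line holds the last 24 bases on the coding strand in the order 5′ to 3′, read from GRCm38, with the stop codon, or the part of it that the gene holds, in capitals.
mt-Co1: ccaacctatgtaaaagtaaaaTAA
mt-Nd3: aaaggattagaatgaacagagTAA
mt-Co3: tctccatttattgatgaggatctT
mt-Cytb: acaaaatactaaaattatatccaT
mt-Nd4: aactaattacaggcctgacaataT
The genes lie on the plus strand at chrM:5328-6872 (mt-Co1), chrM:9459-9806 (mt-Nd3), chrM:8607-9390 (mt-Co3), chrM:14145-15288 (mt-Cytb) and chrM:10167-11544 (mt-Nd4). In 10 of the 13 genes the stop codon is complete in the DNA, as in mt-Co1 and mt-Nd3. In mt-Co3, mt-Cytb and mt-Nd4 a single T is left, and the codon becomes whole only when the tail is added. These 13 genes have no introns, and mt-Nd6 alone lies on the minus strand.

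Per unit of length, the mitochondrial mRNAs were far more abundant than the nuclear ones. Levels of different genes were compared with the deposited FPKM, which are scaled to transcript length and library size. The median level over the 6 libraries was 7296 FPKM for the 13 mitochondrial mRNAs and 74.6 FPKM for the 95 nuclear-encoded members. By the mean of the 6 libraries, the lowest mitochondrial mRNA, mt-Nd3, at 874 FPKM, stood above the highest nuclear-encoded member, Atp5b, at 670.6 FPKM. Across libraries the ranges of these 2 genes overlapped: mt-Nd3 was at 673 FPKM in collagenase replicate 1 and Atp5b at 720.4 FPKM in saline replicate 1. Within each of the 6 libraries mt-Nd3 was above Atp5b, most narrowly in collagenase replicate 1.

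The most abundant transcript was mt-Co1, the catalytic subunit of complex IV that binds oxygen. Its level in the saline group was 15991, 17663 and 30822 FPKM for replicates 1, 2 and 3. The collagenase group had 17839, 19793 and 24034 FPKM in the same order, which is kept for all values below. The collagenase values lay inside the range of the saline values, whose highest was saline replicate 3. It made up 31.5% to 35.8% of all mitochondrial counts, had rank 1 in every library, and mt-Nd1, a membrane subunit of complex I at the ubiquinone site, had rank 2 in all 6. At the other end of the order were mt-Nd6, the one gene on the minus strand, at 1539 FPKM, and mt-Nd3 at 874 FPKM. Between them and the top the order hardly moved: mt-Atp8, mt-Nd5 and mt-Nd4l had ranks 9, 10 and 11 in every library. Since mt-Atp8 and mt-Nd4l overlap mt-Atp6 and mt-Nd4, their levels and ranks as separate transcripts are less certain. The neighbours mt-Cytb, mt-Atp6, mt-Nd4, mt-Co2 and mt-Co3, with means of 7296 to 9415 FPKM, overlapped in their ranges across libraries. Within libraries, mt-Cytb ranked above mt-Nd4, mt-Co2 and mt-Co3 in all 6, and so did mt-Atp6 above mt-Co2 and mt-Co3. The other pairs among these genes changed order between libraries.

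**Figure D1:**
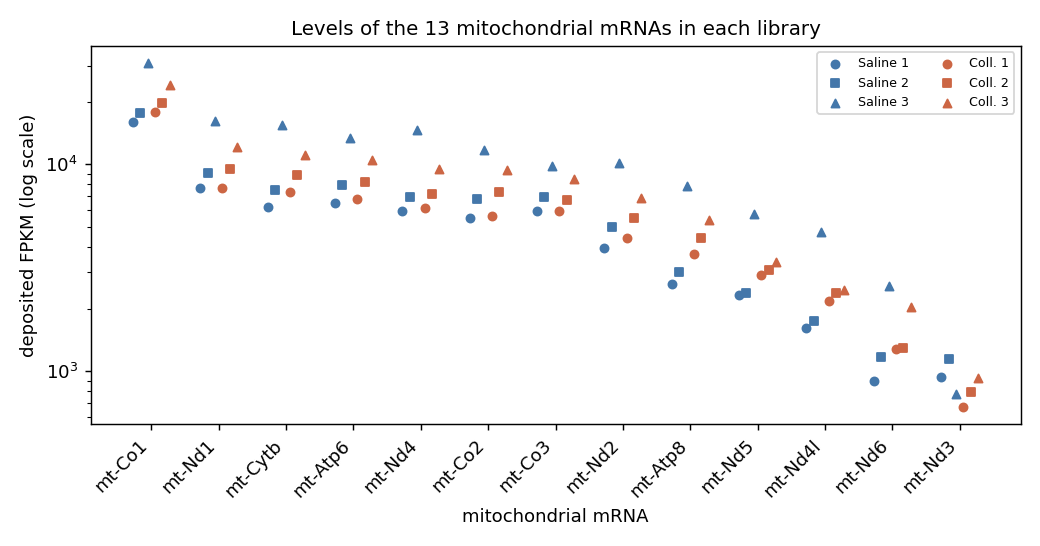
Deposited FPKM of the 13 mitochondrial mRNAs (log axis), with 1 point per library, saline in blue and collagenase in red, ordered by the mean. The highest is mt-Co1 at 15991 to 30822 FPKM, saline replicate 3 (blue triangle) lies above the other 5 libraries for 12 of the 13, and mt-Nd3 is the exception at 772 FPKM in that library.

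The nuclear-encoded subunits differed widely in level. In complex V the catalytic beta subunit Atp5b had the highest level, with 720.4, 669.6 and 627 FPKM in saline and 663, 655 and 689 FPKM in collagenase. Complex IV followed with Cox8a, a small subunit beside the catalytic core, at 526, 608 and 438 FPKM in saline and 405, 459.6 and 562 FPKM in collagenase. The groups overlapped for both genes. The highest members of the other complexes lay close to each other: Uqcrc1, a core protein of complex III, at 145.6 FPKM, Ndufb8 of the complex I membrane arm at 143.6 FPKM, and Sdha, the flavoprotein of complex II, at 136.0 FPKM. Their ranges over the libraries overlapped, and no order is given for these 3. Assembly factors were lower. The 8 of complex I had a median of 11.6 FPKM, against 62.9 FPKM for its 36 nuclear-encoded subunits.

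The libraries differed from each other in a way the groups do not account for, and this touches every result below. The 13 mitochondrial mRNAs took 7.48%, 8.70% and 15.9% of all counts in saline and 8.02%, 9.50% and 11.7% in collagenase. The saline mean was 10.7% ± 4.54 (SD, n = 3) and the collagenase mean 9.73% ± 1.83 (SD, n = 3). Saline replicate 3 was the highest of all, and in the 5 others the groups interleaved. The difference between the group means was smaller than the SD of either group. Without saline replicate 3 the saline mean was 8.09%, below the collagenase mean.

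Nuclear-encoded subunits behaved otherwise. Their 81 genes took 1.16%, 1.24% and 0.978% of the counts outside the mitochondrial mRNAs in saline and 0.965%, 1.02% and 1.14% in collagenase. The means were 1.12% ± 0.133 and 1.04% ± 0.0889 (SD, n = 3 each). Here saline replicate 3 was lower than the other saline libraries, at the level of collagenase replicate 1. The ratio of mitochondrial to nuclear-encoded subunit counts was 7.0, 7.69 and 19.3 in saline and 9.04, 10.3 and 11.6 in collagenase. Its means were 11.3 ± 6.91 and 10.3 ± 1.28 (SD, n = 3 each). Saline replicates 1 and 2 lay below all collagenase libraries and saline replicate 3 far above them. No p-value is given for these sums, because the members were chosen with results of these data known.

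**Figure D2:**
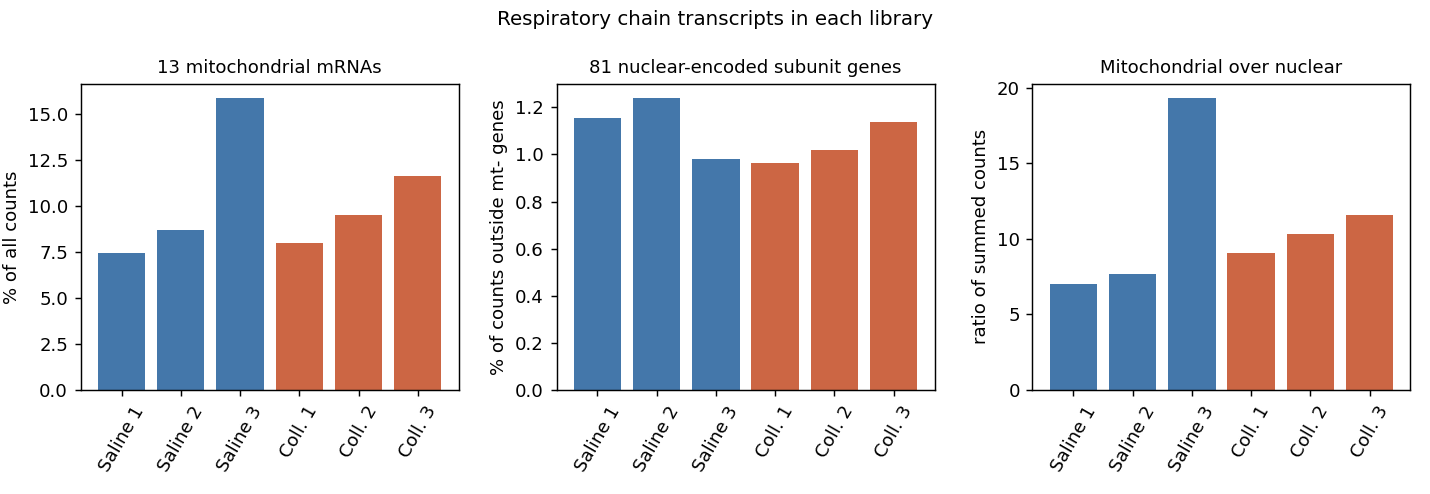
Share of the 13 mitochondrial mRNAs in all counts (left), share of the 81 nuclear-encoded subunit genes in the counts outside the mitochondrial mRNAs (middle) and the ratio of both sums of counts (right), with 1 bar per library, saline in blue and collagenase in red. Saline replicate 3 has the highest mitochondrial share, 15.9%, and the highest ratio, 19.3.

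The same held inside each complex that mixes both genomes. The median FPKM of the mitochondrially encoded subunits of complex I was 34.5, 31.0 and 119 times that of its nuclear-encoded subunits in saline and 48.5, 54.0 and 51.7 times in collagenase. For complex IV the saline ratios were 43.3, 44.1 and 139, and those of collagenase 61.4, 66.1 and 76.8. Complex III, whose 1 mitochondrial mRNA is mt-Cytb, had ratios of 61.6, 70.6 and 239 in saline and 87.2, 108 and 125 in collagenase. Complex V had 29.0, 32.0 and 86.1 in saline and 37.8, 46.0 and 48.9 in collagenase. In all 4 complexes saline replicates 1 and 2 gave the lowest ratios and saline replicate 3 the highest.

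Gene by gene, saline replicate 3 was the lowest saline library for 71 of the 95 nuclear-encoded members, against 41.7% of the 17240 tested genes. For 12 of the 13 mitochondrial mRNAs it was the highest saline library, against 39.6% of tested genes. Its median log2 ratio to the mean of the other 2 saline libraries was -0.36 for nuclear-encoded members and 1.32 for mitochondrial mRNAs. Within the collagenase group, replicate 3 was the highest for 84 nuclear-encoded members and all 13 mitochondrial mRNAs, against 37.4% of tested genes. Collagenase replicate 1 was the lowest of its group for 73 and 13 members, against 35.8%. In both groups, then, many members moved together from library to library.

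Saline replicate 3 differed from the other saline libraries also by transcript length. The median log2 ratio over nuclear-encoded members was -0.43 for the 20 with a principal transcript under 600 nt and -0.21 for the 12 of 2000 nt or more. Over all tested genes with such a transcript the same medians were -0.34 (178 genes) and 0.0011 (11379 genes). Markers of choroid plexus and ependyma were low in replicate 3 of both groups, with sums of 51.4 and 50.9 CPM against 919 to 2549 CPM in the other 4 libraries. CPM are depth-scaled counts, adjusted between libraries by TMM factors. The part of length or of these markers in the members' results was not tested.

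**Figure D3:**
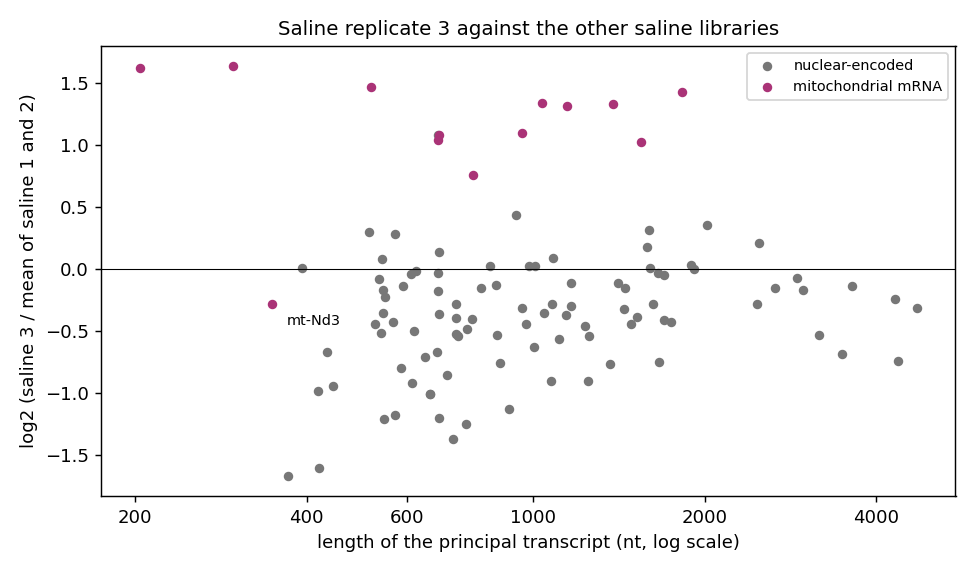
Log2 ratio of saline replicate 3 to the mean of saline replicates 1 and 2 against the length of the principal transcript in nucleotides (log axis), with 1 point per gene, for the 95 nuclear-encoded members (grey) and the 13 mitochondrial mRNAs (purple). The mitochondrial mRNAs lie above 0 except mt-Nd3 (348 nt), and the lowest nuclear-encoded points have short transcripts.

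Collagenase was compared with saline by edgeR's quasi-likelihood test, with Benjamini-Hochberg adjustment over all 17240 tested genes and a threshold of 0.05. None of the 108 members passed with all 6 libraries (against 2.41% of tested genes called in either direction, 0.29% lower and 2.12% higher). At an unadjusted p under 0.05 there were 11 members, all nuclear-encoded and lower in collagenase, against 4.6% of tested genes that were lower at that level. DESeq2 called 1 member, Cox6c, against 0.915% of its tested genes called lower, and 0 members higher, against 3.09%.

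Most log2 fold changes of collagenase over saline were small and negative. They were below 0 for 92 of the 95 nuclear-encoded members and for 13 of 13 mitochondrial mRNAs, against 53.4% of tested genes. The medians were -0.20 and -0.23, against -0.02 for all tested genes. Scaling by library totals alone moved the median of all genes by 0.08, and the medians of nuclear-encoded subunits and mitochondrial mRNAs were then -0.12 and -0.13. All members were read from the same 6 libraries, so their directions are not independent of each other. The 3 collagenase libraries were all below the 3 saline libraries for 7 nuclear-encoded members (Ndufs1, Ndufaf4, Uqcrb, Cox6c, Cox7a1, Atp5d and Atp5g1), against 7.5% of tested genes, so this share was at the background. No member lay above in all 3, against 10.1% of tested genes. In bulk tissue, fewer cells of a type and less RNA per cell cannot be told apart.

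**Figure D4:**
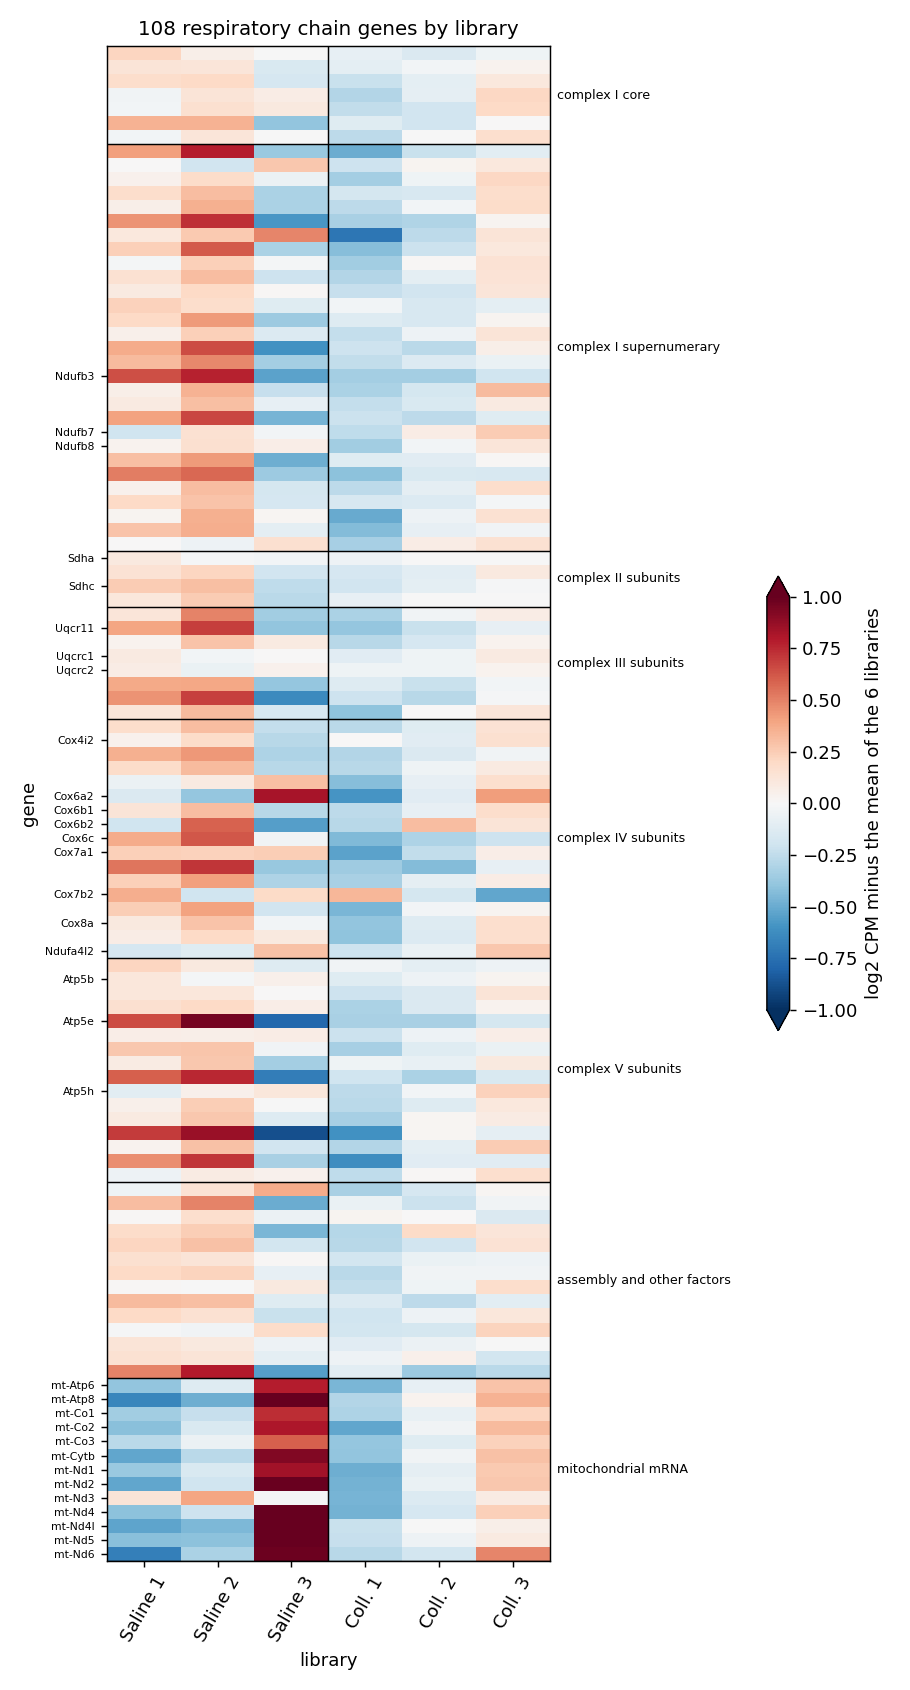
Log2 CPM of the 108 members in each library after subtracting each gene's mean over the 6 libraries (red above, blue below the mean, colours ending at 1 and -1), ordered by complex with the mitochondrial mRNAs at the bottom and with names for the genes taken by the naming rule. Saline replicates 1 and 2 are mostly above the mean for nuclear-encoded members, and saline replicate 3 is above it for 12 of 13 mitochondrial mRNAs.

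Without saline replicate 3 the picture split by genome. Of the nuclear-encoded members, 24 were then called lower and 0 higher, against 2.35% and 2.86% of the 17594 genes tested, with 90 of 95 log2 fold changes below 0, against 49.6% of tested genes, and a median of -0.25. The calls over all genes also moved, from 50 to 414 lower. Of the mitochondrial mRNAs 0 were called, 1 of 13 had a negative log2 fold change, and the median was 0.25. The smallest adjusted p among them was 0.070, for mt-Nd4l. Saline replicate 3 was the lowest saline library for each of the 24 genes. By edgeR they were called only with it left out, so this adds no separate support. Going by the fits with and without it, whether nuclear-encoded members pass rested on this 1 library. The same held for the side of 0 on which the median of the mitochondrial mRNAs lay.

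**Figure D5:**
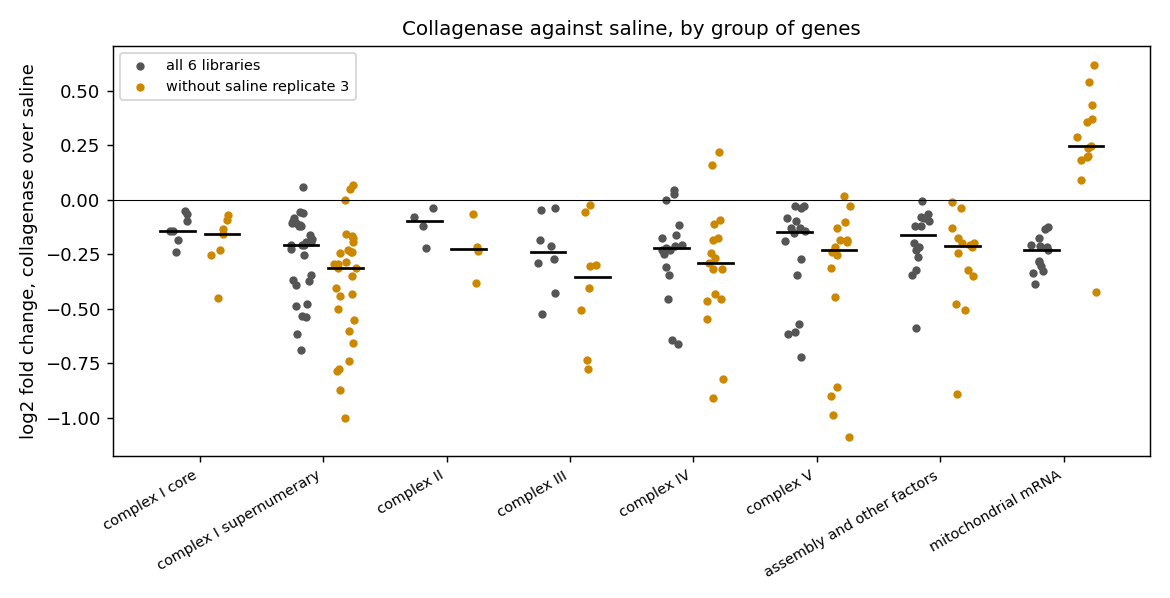
Log2 fold change of collagenase over saline for each member, by complex, with all 6 libraries (grey) and without saline replicate 3 (orange), 1 point per gene and a line at the median. Without that library the median of the mitochondrial mRNAs goes from -0.23 to 0.25 and that of the nuclear-encoded groups stays below 0.

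In complex I, 1 of 7 core subunits (Ndufv1, which binds NADH and the flavin) and 8 of 29 supernumerary subunits were called lower without saline replicate 3, and none with it. The median log2 fold changes of both groups were -0.14 and -0.21 with all libraries. Ndufb3, a small subunit of the membrane arm, had the largest negative value of the complex. Its levels were 46.0, 50.1 and 20.2 CPM in saline and 23.3, 23.2 and 25.6 CPM in collagenase. The saline libraries lay on both sides of the collagenase group. The log2 fold change was -0.69 ± 0.31 (SE, adjusted p = 0.436) with all libraries and -1.0 (adjusted p = 0.0037) without saline replicate 3. Ndufb7, another subunit of the membrane arm, had the largest positive one, with 38.4, 49.2 and 43.4 CPM in saline and 37.0, 46.5 and 52.8 CPM in collagenase. Its groups overlapped (log2 fold change 0.06 ± 0.15, adjusted p = 0.937). Ndufb8 had 107, 117 and 109.7 CPM in saline and 82.4, 103 and 114 CPM in collagenase, also overlapping (-0.16 ± 0.13, adjusted p = 0.717).

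Ndufa3, a supernumerary subunit, had 17.9, 19.9 and 23.3 CPM in saline and 10.1, 13.8 and 18.1 CPM in collagenase. It is one of 12 nuclear-encoded members that were highest among the saline libraries in replicate 3, and its groups met at 17.9 and 18.1 CPM (log2 fold change -0.54 ± 0.21, adjusted p = 0.352). Of the 8 complex I assembly factors, all had negative log2 fold changes, with a median of -0.15. Ndufaf7, a methyltransferase of the mitochondrial matrix, was called without saline replicate 3 (-0.48, adjusted p = 0.032) and had an adjusted p of 0.354 with it. In Ndufaf4 the groups did not overlap, with 48.6, 47.5 and 43.7 CPM in saline and 38.3, 41.4 and 41.9 CPM in collagenase (-0.20 ± 0.10, adjusted p = 0.466).

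Complex II had the median log2 fold change nearest to 0 among the complexes with all libraries, -0.10 over 4 subunits. Without saline replicate 3 this median was -0.226, close to the -0.230 of the nuclear-encoded subunits of complex V. Sdha had 446, 412 and 408 CPM in saline and 401, 415 and 415 CPM in collagenase. These were among the steadiest values of all members, and the difference of -0.04 ± 0.09 had a 95% interval from -0.26 to 0.18 (adjusted p = 0.928). Sdhc, a membrane anchor of the complex, had 101, 105 and 71.0 CPM in saline and 74.1, 78.9 and 84.1 CPM in collagenase. Saline replicate 3 was the lowest library of all for it. The log2 fold change was -0.22 ± 0.15 (adjusted p = 0.650) with all libraries and -0.38 (adjusted p = 0.048) without that one. Of the 4 assembly factors, Sdhaf4, which helps join Sdha to Sdhb, was called without saline replicate 3 (-0.89, adjusted p = 0.022).

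In complex III, 3 of 8 nuclear-encoded subunits were called lower without saline replicate 3: Uqcrfs1, the iron-sulphur protein, and the small subunits Uqcrh and Uqcr11. Uqcr11 had 26.9, 33.0 and 15.6 CPM in saline and 15.6, 17.5 and 19.3 CPM in collagenase. Saline replicate 3 lay with the collagenase libraries. Its log2 fold change was -0.53 ± 0.25 (adjusted p = 0.463) with all libraries and -0.78 (adjusted p = 0.020) without that library. The core proteins differed little. Uqcrc2 had 201, 182 and 196 CPM in saline and 185, 184 and 195 CPM in collagenase (-0.04 ± 0.09, adjusted p = 0.932), and Uqcrc1 had 269.9, 249 and 254 CPM in saline and 234, 245 and 269 CPM in collagenase (-0.05 ± 0.10, adjusted p = 0.920).

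Complex IV held the member with the smallest p, Cox6c, a small membrane subunit. Its levels were 147, 174 and 110.4 CPM in saline and 83.5, 91.3 and 98.0 CPM in collagenase. All saline libraries were above all collagenase libraries, and replicate 3 was the nearest to them. The log2 fold change was -0.66 ± 0.16 (95% interval -1.03 to -0.29, adjusted p = 0.098), which missed the threshold. It passed without saline replicate 3 (-0.82, adjusted p = 0.0087) and by DESeq2 with all libraries (-0.66, adjusted p = 0.0053). Cox7a2 and Cox5a were the other subunits called without saline replicate 3, 3 of 17 in all. Cox7a2 had 108, 123 and 57.5 CPM in saline and 58.6, 55.5 and 70.6 CPM in collagenase. Cox6b1 had 89.7, 102 and 67.8 CPM in saline and 68.5, 77.6 and 92.9 CPM in collagenase (-0.12 ± 0.17, adjusted p = 0.865), and Cox8a had 304, 346 and 279 CPM in saline and 216, 261 and 321 CPM in collagenase (-0.22 ± 0.16, adjusted p = 0.668). In these 3 genes the groups overlapped. Cox7a2l, which helps join complexes III and IV into supercomplexes, was called without saline replicate 3 (-0.51, adjusted p = 0.029).

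Several subunits have a second isoform that is typical of other tissues or of low oxygen. These were scarce in the thalamus: the level per length of Cox4i2, the isoform linked to low oxygen, was 0.58%, 0.58% and 0.61% of that of Cox4i1 in saline and 0.77%, 0.63% and 0.64% in collagenase. Cox7a1, of heart and skeletal muscle, was at 1.03% to 2.2% of Cox7a2. Cox6a2, of heart and skeletal muscle, reached 4.85%, 3.70% and 7.40% of Cox6a1 in saline and 4.6%, 5.05% and 6.14% in collagenase. The Cox6a2 and Cox7a1 shares overlapped between the groups. By level, Cox7a1, with 159 counts in all, was lower in every collagenase library than in any saline library (log2 fold change -0.46, edgeR adjusted p = 0.669). The Cox4i2 shares lay higher in each collagenase library. This ratio was not tested, and the Cox4i2 level itself overlapped between the groups at 2.46, 2.70 and 1.96 CPM in saline and 2.39, 2.2 and 2.67 CPM in collagenase (log2 fold change 0.03 ± 0.23, adjusted p = 0.981). Ndufa4l2, a relative of the complex IV subunit Ndufa4 that is known to respond to low oxygen, was at 1.54%, 1.46% and 2.09% of Ndufa4 in saline and 2.09%, 1.92% and 1.96% in collagenase. Its level of 4.01, 4.13 and 5.51 CPM in saline and 3.91, 4.30 and 5.44 CPM in collagenase overlapped between the groups (log2 fold change -0.00033 ± 0.22, 95% interval -0.49 to 0.49). Cox6b2 and Cox7b2, known mainly from testis, were at 1.2 to 2.65 and 0.233 to 0.428 CPM, and neither passed (adjusted p of 0.981 and 0.913).

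Complex V had a median log2 fold change of -0.15 over 16 nuclear-encoded subunits, and 5 of them were called lower without saline replicate 3 (Atp5e, Atp5g1, Atp5g3, Atp5k and Atp5mpl). Atp5e, the epsilon subunit of the central stalk, had 38.8, 47.9 and 14.3 CPM in saline and 19.7, 19.7 and 21.8 CPM in collagenase. Saline replicate 3 was the lowest library of all for this gene. The log2 fold change was -0.72 ± 0.40 (adjusted p = 0.563) with all libraries and -1.09 (adjusted p = 0.0044) without that library. At the other end was Atp5h, subunit d of the peripheral stalk, with 140.2, 156 and 163 CPM in saline and 125.5, 148 and 177 CPM in collagenase (-0.03 ± 0.14, adjusted p = 0.967). The beta subunit Atp5b had 1466, 1341 and 1405 CPM in saline and 1244, 1305 and 1382 CPM in collagenase, with overlap (-0.10 ± 0.11, adjusted p = 0.806).

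The rotor ring of the ATP synthase is made of the same c subunit from 3 genes, Atp5g1, Atp5g2 and Atp5g3, whose proteins differ in the leader that is cut off on import. Atp5g3, the most abundant of them per length, had 231, 257 and 94.4 CPM in saline and 133, 122 and 137 CPM in collagenase. Saline replicate 3 was again below all other libraries. Atp5g2 was at 26.4%, 26.3% and 47.8% of Atp5g3 per length in saline and 41.8%, 44.2% and 44.8% in collagenase. In Atp5g1 the groups did not overlap, with 119, 119 and 95.9 CPM in saline and 78.3, 90.3 and 94.1 CPM in collagenase (log2 fold change -0.35 ± 0.12, adjusted p = 0.281). The ratio of deposited count to FPKM varied by more than 1.2 times over the libraries, after scaling, for 5 members (Ndufb2, Cox7a1, Ndufv3, Ndufa12 and Atp5g1), so shares that use the FPKM of these genes are less certain.

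Among the mitochondrial mRNAs the log2 fold changes with all libraries lay between -0.39 (mt-Nd4) and -0.13 (mt-Nd6), and the smallest adjusted p was 0.475. For mt-Nd4, a proton-pumping subunit of complex I, the levels were 8705, 10007 and 23484 CPM in saline and 8324, 10298 and 13615 CPM in collagenase. The highest value was in saline replicate 3 and the lowest in collagenase replicate 1. The log2 fold change was -0.39 ± 0.39 (adjusted p = 0.781) and without saline replicate 3 it was 0.20. mt-Co1 had 26250, 28513 and 55724 CPM in saline and 26995, 31813 and 38867 CPM in collagenase, with log2 fold changes of -0.18 ± 0.30 (adjusted p = 0.890) and 0.25. The sign was the opposite without that library in 12 of the 13.

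The short overlapping genes moved furthest. mt-Atp8, a small subunit of the ATP synthase that overlaps mt-Atp6, had 574, 646 and 1871 CPM in saline and 737, 929 and 1148 CPM in collagenase. mt-Nd4l, a small complex I subunit that overlaps mt-Nd4, had 513, 542 and 1636 CPM in saline and 635, 738 and 769 CPM in collagenase. In both genes saline replicates 1 and 2 lay below and saline replicate 3 above the collagenase libraries. The log2 fold changes were -0.14 ± 0.47 and -0.33 ± 0.46 with all libraries, and 0.62 (adjusted p = 0.098) and 0.44 (adjusted p = 0.070) without saline replicate 3. mt-Nd6, whose coding strand is opposite to that of the other 12, had 492, 634 and 1557 CPM in saline and 652, 698 and 1106 CPM in collagenase. No strand-marking step is named, so its reads cannot be told apart from those of heavy-strand transcripts over the same bases.

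mt-Nd3 stood apart from the other 12. It encodes a small subunit of complex I that carries a loop near the ubiquinone site. Its levels were 346, 416 and 314 CPM in saline and 229, 288 and 336 CPM in collagenase. Saline replicate 3 was the lowest saline library for it, and the groups overlapped. As a share of all mitochondrial counts it was 0.463%, 0.490% and 0.178% in saline and 0.304%, 0.309% and 0.289% in collagenase. Saline replicates 1 and 2 were the highest of the 6, saline replicate 3 was the lowest, and the collagenase libraries lay close together between them. The log2 fold change of mt-Nd3 was -0.34 ± 0.16 (adjusted p = 0.475) with all libraries and -0.43 (adjusted p = 0.185) without saline replicate 3, so it alone among the mitochondrial mRNAs kept its sign. As shown by its last bases above, its stop codon is complete, as it is in 10 of the 13 genes. By annotated length, mt-Nd3 is one of the shortest of the 13, at 348 nt. In saline replicate 3 it was at 0.825 times the mean of the other saline libraries. For mt-Atp8 (204 nt) and mt-Nd4l (297 nt) the same ratios were 3.07 and 3.10. Both overlap a longer gene, mt-Atp6 and mt-Nd4, so their annotated lengths may not be those of separate mRNAs. The part of the stop codon or of length in the values of mt-Nd3 was not tested.

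The transcription factors NRF1 and GABPA (a part of NRF2) are known to drive many nuclear genes of the chain, and YY1 is a further factor at such promoters. RefSeq promoter sequences (GRCm38.p6), from 250 bases before to 50 bases after the gene start, were found for 77 of the 95 nuclear-encoded members by symbol. Windows of 60 bases with a match before the start are shown for a member of complex III called without saline replicate 3 and for an assembly factor whose groups did not overlap. The match is in capitals, in the gene's 5′ to 3′ direction.
Uqcr11: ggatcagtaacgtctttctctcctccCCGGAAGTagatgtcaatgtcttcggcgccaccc
Ndufaf4: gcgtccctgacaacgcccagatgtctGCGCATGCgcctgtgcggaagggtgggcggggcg
The first lies at chr10:80406854-80406913 on the minus strand and holds the GABPA motif, CCGGAAGT, 59 bases before the start. The second lies at chr4:24897944-24898003 on the plus strand and holds the NRF1 motif, GCGCATGC, 106 bases before the start, overlapped by a match on the other strand. Both strands were searched for exact matches. The NRF1 motif was in promoters of 12 of the 77 genes (15.6%), against 3.05% of all 27025 genes with promoters of this length. The YY1 motif, AAGATGGC, was in 10 (13%), against 3.19%, and the GABPA motif in 5 (6.49%), against 4.31%. A match is a description of the letters and shows no binding.

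Genes that serve the chain without being its subunits were followed from lists of neighbouring pathways. With all 6 libraries, 0 of 19 genes of mitochondrial DNA expression and replication, 0 of 15 regulators of biogenesis, 0 of 14 electron carriers and their makers, 0 of 24 assembly factors of complexes III and IV, 0 of 17 genes of the TCA cycle and 0 of 18 of glycolysis passed in either direction. Their median log2 fold changes were -0.09, -0.06, -0.05, -0.14, -0.11 and -0.08. Values were negative for 16 of 19, 9 of 15, 9 of 14, 22 of 24, 14 of 17 and 14 of 18 genes. The order is that of the lists above, and the share over all tested genes was 53.4%. The all-gene median was -0.02, and 2.41% of tested genes were called in either direction. Counts of 0 in lists this short therefore say little. Without saline replicate 3 there were 3 calls among assembly factors of complexes III and IV (Cox14, Hccs and Cox17). There was 1 call among the carriers (Coq2) and 1 in glycolysis (Pgk1). All these calls were lower, and the other 3 lists had 0. Over all genes tested without that library, 2.35% were called lower.

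In each list the gene with the smallest p missed the threshold. Pnpt1, the mitochondrial polynucleotide phosphorylase, was at 27.5 ± 0.491 CPM in saline and 23.6 ± 1.60 CPM in collagenase (SD, n = 3 each, edgeR adjusted p = 0.433). Ppargc1a (PGC-1 alpha), a coactivator that drives mitochondrial biogenesis, was at 62.3 ± 9.21 and 48.3 ± 5.56 CPM (adjusted p = 0.335 by edgeR, n = 3 each). Coq9, which takes part in ubiquinone synthesis, was at 63.3 ± 4.68 and 52.8 ± 3.72 CPM (adjusted p = 0.355). Ttc19, a complex III assembly factor, was at 142 ± 16.3 and 112 ± 1.2 CPM (adjusted p = 0.218). Dlat, a subunit of pyruvate dehydrogenase, was at 138 ± 10.6 and 113 ± 4.01 CPM (adjusted p = 0.242). Hk2, a hexokinase isoform, was the one of these 6 with a higher collagenase mean, 5.80 ± 2.18 against 2.97 ± 1.31 CPM (adjusted p = 0.377).

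Markers of the cells in the tissue moved between the same groups. The summed level of 10 microglia and macrophage markers was 336 to 369 CPM in saline and 734 to 1084 CPM in collagenase, and 7 of the 10 rose. Of 8 astrocyte markers, Gfap and Aqp4 rose, from 186 ± 59.3 to 637 ± 174 CPM and from 272 ± 20.2 to 479.8 ± 91.3 CPM (SD, n = 3 each, edgeR adjusted p of 0.021 and 0.032). None of 10 general neuron markers or of 10 thalamic relay neuron markers passed. The neuron sums were 8088, 7295 and 8946 CPM in saline and 6156, 7089 and 7398 CPM in collagenase. For the relay markers the sums were 3744, 2766 and 4256 CPM in saline and 2769, 3228 and 3224 CPM in collagenase. The median log2 fold change over the 10 relay markers was -0.24 with all libraries and -0.035 without saline replicate 3. Over the 10 general neuron markers it was -0.159 and -0.162 in the same order. With all libraries, values were negative for 9 of the 10 general and 8 of the 10 relay markers, against 53.4% of tested genes. No neuron or relay marker was at 0 in any library, which held for the 10 markers of hippocampus and cortex too and so does not tell these regions apart. The summed level of the markers of hippocampus and cortex was 742, 726 and 629 CPM in saline and 436, 425 and 408 CPM in collagenase, without overlap. Of these 10 genes 9 had a negative log2 fold change, with a median of -0.80. Slc17a7, a glutamate transporter of vesicles, was the 1 that passed with all libraries and fell, at 442 ± 52.0 CPM in saline and 249 ± 13.6 CPM in collagenase (edgeR adjusted p = 0.012). The part of these cells, or of neighbouring tissue in the dissection, in the members' differences was not tested.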

How the data were processed

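RNA was measured in 6 libraries, 3 per group, with groups and replicate numbers taken from the sample titles. Per the labels' protocols, mRNA was caught on oligo(dT) beads, fragmented and copied with random hexamers, and no strand-marking step is named. Per the file headers, every feature has a raw count and an FPKM as deposited by the authors. GRCm38, HISAT2 2.2.1, DESeq2, StringTie and FastQC are named in the submitters' processing notes. The sources used here give no annotation release, strand setting or handling of reads that match several places. Counts of genes with close copies (Atp5g genes, processed pseudogenes, nuclear copies of mitochondrial DNA) and of overlapping genes (mt-Atp8 and mt-Atp6, mt-Nd4l and mt-Nd4, mt-Nd6 and mt-Nd5) are therefore uncertain.

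Each file held 26554 features, of which 22036 had Ensembl identifiers and 4518 were assembled loci. From 10 to 30 lines of spilled annotation text per file were skipped. Positions and lengths came from GENCODE M21. Tests ran on counts in edgeR 4.0.16 (R 4.3.3): filterByExpr, TMM factors, robust quasi-likelihood F-test, two-sided, Benjamini-Hochberg over 17240 genes, threshold 0.05. The steps were tested on simulated data. Fold changes, collagenase over saline, carry the fit's SE and 95% intervals, and CPM are scaled by TMM. FPKM served to compare levels between genes and to give levels, ratios and shares per length by library and group, and were not tested.

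The members, lists and tests were chosen with earlier results of these data known. Named genes are the 13 mitochondrial mRNAs, any member that passes, in each complex the largest and smallest log2 fold change (mean of at least 10 CPM) and the highest FPKM, the tissue or condition specific isoforms, and the smallest p in each pathway list. Every other gene was named after its values were seen. Alternatives were other scalings, DESeq2 1.42.0, no filter, a replicate block, other features, other minimum counts and leaving out each library.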

Additional observations from a re-analysis of the deposited data

How the results depend on the processing

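With all 6 libraries the count of members called was 0 under every alternative scaling, filter, set of features and the replicate block, and DESeq2 called 1 nuclear-encoded member. Over all genes, library totals alone gave 29 lower calls and DESeq2 gave 180 lower and 608 higher. Leaving out 1 library gave 0 to 24 nuclear-encoded members called lower, 4 to 414 genes lower and 81 to 503 higher; without saline replicates 1 and 3 there were 4 and 414 lower, without collagenase replicates 2 and 3 there were 7 and 10 lower, and without collagenase replicates 1, 2 and 3 there were 149, 135 and 203 higher. Medians ran from -0.29 to -0.09 for nuclear-encoded subunits, from -0.45 to 0.25 for mitochondrial mRNAs and from -0.46 to 0.27 without mt-Nd3, a choice made after seeing the data. The mitochondrial share was 23.3% (saline) and 21.6% (collagenase) of summed FPKM, a measure per length. A minimum of 10 or 600 counts left 109 or 104 members. Same-number libraries correlated at 0.044, 0.107 and 0.203 in their deviations and different-number ones at -0.161 to 0.076. Saline replicate 1 correlated best with collagenase replicate 2, and saline replicates 2 and 3 with their own number. The mitochondrial share rose from replicate 1 to 3 in both groups, and choroid plexus markers were low in replicate 3 of both. A shared block by number thus remains possible. The labels state no pairing, so the numbers were not treated as one in the main fit. The replicate block called 252 genes higher and 50 lower, with medians of -0.18 for nuclear-encoded subunits and -0.16 for mitochondrial mRNAs. Of 507 values of named genes under alternatives, 37 changed sign, 6 passed newly and 464 did neither. Library totals alone gave 0.049 for Atp5h, 0.085 for Ndufa4l2, 0.036 for Sdha, 0.031 for Uqcrc1 and 0.042 for Uqcrc2. Factors without mitochondrial genes gave 0.0014 for Ndufa4l2, and the replicate block gave 0.0002 for Ndufa4l2, 0.065 for mt-Atp8 and 0.018 for mt-Nd6. Leaving out 1 library gave -0.16 to 0.084 for Atp5h, -0.092 to 0.13 for Cox4i2, -0.53 to 0.22 for Cox6a2, -0.27 to 0.014 for Cox6b1, -0.18 to 0.43 for Cox6b2, -0.15 to 0.16 for Ndufa4l2, -0.064 to 0.18 for Ndufb7, -0.45 to 0.20 for mt-Atp6, -0.43 to 0.62 for mt-Atp8, -0.37 to 0.25 for mt-Co1, -0.45 to 0.24 for mt-Co2, -0.38 to 0.089 for mt-Co3, -0.47 to 0.37 for mt-Cytb, -0.50 to 0.18 for mt-Nd1, -0.58 to 0.29 for mt-Nd2, -0.64 to 0.20 for mt-Nd4, -0.61 to 0.44 for mt-Nd4l, -0.53 to 0.36 for mt-Nd5 and -0.42 to 0.54 for mt-Nd6. The cause was not tested. With 3 libraries a group, 1 library could decide a call.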
